A study of Mus musculus with 6 samples.

Results

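The imprinted Dlk1-Dio3 region of mouse chromosome 12 holds a dense array of microRNA (miRNA) genes, and 9 hairpins of its proximal part, around Rtl1 and on to Rian, were examined here in brain extracellular vesicles. The members are both arms of 9 hairpins, miR-337, miR-540, miR-665, miR-431, miR-433, miR-127, miR-434, miR-136 and miR-370, taken by name from the list of 1926 miRNAs. That gives 18 mature miRNAs, of which 17 were detected. Such vesicles are small membrane sacs shed by cells, and the 6 libraries are 3 from brains of mice that had undergone status epilepticus (SE), a prolonged seizure, and 3 from control mice matched to them (CON), with 24 hr named in the title of the series. No source used here gives strain, age, sex, the way seizures were induced or whether brains were pooled. The labels do not say whether replicates are different animals. Each p-value therefore reflects the spread among these samples alone, and that spread may be technical.

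miRNAs are cut in pairs from the stem of a hairpin precursor, and the 5p and 3p arms can each be loaded into Argonaute, which the miRNA then guides to messenger RNAs through its seed, bases 2 to 8. In the Dlk1-Dio3 region the non-coding RNAs and miRNAs are expressed from the maternal chromosome, whereas Dlk1, Rtl1 and Dio3 are expressed from the paternal one. Rtl1 is a retrotransposon-derived gene needed for placental development. A maternal transcript antisense to Rtl1 carries several of these hairpins, and its miRNAs pair perfectly with the paternal Rtl1 messenger RNA and can direct its cleavage. miR-127-3p is the best known of them.

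All 18 members matched a mature sequence in RefSeq (GRCm38.p6). The leading arm of each hairpin is shown 5′ to 3′, in the order of the hairpins along the chromosome and with the seed in capitals, because these arms make up most of the reads described below.
miR-337-5p: cGGCGUCAugcaggaguugauu
miR-540-3p: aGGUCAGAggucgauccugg
miR-665-3p: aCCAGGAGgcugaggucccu
miR-431-3p: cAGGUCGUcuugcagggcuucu
miR-433-5p: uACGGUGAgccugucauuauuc
miR-127-3p: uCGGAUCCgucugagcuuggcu
miR-434-3p: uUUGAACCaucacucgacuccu
miR-136-3p: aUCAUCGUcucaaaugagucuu
miR-370-5p: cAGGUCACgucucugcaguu
The 18 members had 18 distinct seeds. No detected miRNA with a RefSeq sequence shared the seed of miR-127-3p or miR-337-5p. miR-540-3p shared its seed with miR-6915-5p, and miR-370-5p shared its seed with miR-1193-3p, another miRNA of the locus.

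The label "Rtl1-antisense" held for part of the group. In GENCODE M21 (GRCm38), miR-431 (chr12:109590447-109590537), miR-433 (chr12:109591715-109591838), miR-127 (chr12:109592846-109592915), miR-434 (chr12:109594506-109594599) and miR-136 (chr12:109595327-109595388) lie on the plus strand, opposite the coding exon of Rtl1 (coding part chr12:109590172-109595403, minus strand). miR-337, miR-540 and miR-665 start within 0.525 kb of each other between annotated genes, on the downstream side of Rtl1. In the RefSeq gene table of the same build, the longer Rtl1 gene spans 8 of the 9 hairpins. miR-370 (chr12:109618258-109618336) lies 22.9 kb beyond miR-136, in an intron of the non-coding RNA gene Rian and on the same strand. The submitters' processing notes name mm9, and positions here are from GRCm38 and were matched by name.

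Both arms of 5 hairpins, 10 members in all, were perfect complements of the GENCODE Rtl1 transcript, and each of the 10 sites lay in its coding part. The site for miR-127-3p, at bases 2642 to 2663 of the 6358-base transcript, is shown as DNA letters with the complement of the seed in capitals, since miR-127-3p is by far the most abundant member.
Rtl1 site of miR-127-3p: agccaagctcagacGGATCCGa
The site of the next Rtl1-antisense leading arm is given for comparison.
Rtl1 site of miR-433-5p: gaataatgacaggcTCACCGTa
Across 141767 GENCODE transcripts, the arms of miR-431, miR-433, miR-127 and miR-434 had a perfect complement in Rtl1 alone. Those of miR-136 also matched Mir3071, the hairpin on the opposite strand. The arms of miR-337 matched only Mir3544, which likewise lies opposite, and the 6 arms of miR-540, miR-665 and miR-370 matched no GENCODE transcript. The longer RefSeq Rtl1 gene, which spans miR-337, miR-540 and miR-665, was not searched. Both arms of miR-3544 and of miR-3071 were listed at 0 in all SE libraries and had no CON reads.

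Levels are in RPM, the reads of a miRNA after each library was scaled to one fixed total over all listed miRNAs. The members are 20 to 26 bases long, so levels were compared without scaling by length. The part of library preparation in the differences between miRNAs and between arms below was not tested. No source used here says whether molecular identifiers were counted. The libraries held 5482407 to 10845434 miRNA reads, with SE replicate 1 the deepest. In the deposited RPM table the names follow the SE columns, whereas the CON columns do not follow them. Each CON row was given its miRNA name through the base means that the authors' deposited table holds for both groups together. All 687 CON rows above 0 were matched, and the size factors that resulted equalled, in 6 of 6 libraries, those computed afresh from the reads with names put back. Every CON value below depends on this step. Which columns are SE and which are CON was taken from their headers, and no value here checks it. let-7 miRNAs took 77.2% to 81.0% of the reads. Of the neuronal markers miR-124-3p, miR-9-5p, miR-128-3p, miR-138-5p and miR-218-5p, 5 of 5 were detected, with a summed level of 19139 to 23439 RPM in SE and 21130 to 25423 RPM in CON libraries. Microglial and leukocyte markers summed to 73.3 to 111 RPM. Oligodendrocyte markers summed to 253 to 452 RPM, with miR-219a-5p at 0 in 4 of 6 libraries. Red cell markers summed to 16.8 to 32.2 RPM. Of these, miR-144-3p was at 0 throughout, and miR-451a was at 0 except for 0.92 RPM in CON replicate 3. The red cell sum thus came almost wholly from miR-486a-5p. The summed astrocyte markers miR-143-3p, miR-29a-3p and miR-24-3p (10779 to 11470 RPM in SE, 12322 to 16216 RPM in CON), the summed muscle markers (208 to 222 RPM in SE, 234 to 311 RPM in CON) and the liver miRNA miR-122-5p (89.4 to 114 RPM in SE, 150 to 233 RPM in CON) did not overlap between the groups. Of the astrocyte markers, only miR-29a-3p was itself without overlap, at 6458 to 7288 RPM in SE and 7703 to 11347 RPM in CON. The muscle marker miR-206-3p overlapped, at 58.0 to 64.0 RPM in SE and 57.6 to 95.6 RPM in CON. All SE values lay below CON for 13.4% of all tested miRNAs. The summed vessel markers overlapped (4355 to 5240 RPM in SE, 4817 to 6715 RPM in CON). So did the summed choroid plexus markers (265 to 572 RPM in SE, 302 to 468 RPM in CON). That sum was mostly miR-204-5p (257 to 561 RPM in SE, 293 to 450 RPM in CON). miR-211-5p was at 0 except for 0.50 RPM in SE replicate 2. The part of these lists in the values below was not tested.

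In SE libraries the members together took 0.943% ± 0.0359 of the reads, and in CON libraries 0.992% ± 0.0853 (SD, n = 3 each). By library the share was 0.962%, 0.965% and 0.902% in SE and 1.08%, 0.988% and 0.908% in CON replicates 1, 2 and 3, so the groups overlapped. In such bulk samples, fewer vesicles of a cell type and less of a miRNA per vesicle cannot be told apart. Of all reads from the Dlk1-Dio3 list, the members made up 34.5% ± 1.18 in SE and 34.9% ± 1.25 in CON libraries (SD, n = 3 each). A single arm dominated the group. Of the members' reads, 80.7% ± 1.19 in SE and 81.1% ± 0.606 in CON libraries were miR-127-3p (SD, n = 3 each). The share of miR-337-5p was 10.8% ± 0.451 in SE and 10.7% ± 0.257 in CON (SD, n = 3 each). The remaining members shared 7.61% to 9.94%.

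miR-127-3p stood at 7641, 7890 and 7305 RPM in SE replicates 1, 2 and 3 and at 8811, 8005 and 7309 RPM in CON replicates 1, 2 and 3. It ranked 16 of the 775 detected miRNAs by mean level. CON replicate 1 was the highest library, and CON replicate 3 lay at the level of the lowest SE library. The means were 7612 ± 293 RPM in SE and 8042 ± 752 RPM in CON (SD, n = 3), from 43887 to 82865 reads per library. The log2 fold change from limma, taken as SE over CON, was -0.08, with a 95% interval of -0.35 to 0.20 and an adjusted p of 0.893. On this scale the interval spans 0.785-fold to 1.15-fold, so a change of 1.5-fold in either direction lies outside it. With the scaling by median of ratios the value was 0.028, and with quantile normalization 0.16.

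miR-337-5p, the second most abundant member, stood at 1024, 1017 and 1024 RPM in SE and 1150, 1091 and 958 RPM in CON replicates 1, 2 and 3. The 3 SE libraries were within a few RPM of each other and inside the range of the CON libraries. Its log2 fold change was -0.06, with a 95% interval of -0.41 to 0.30 and a limma adjusted p of 0.935. The sign turned with scaling, to 0.047 with median of ratios and 0.21 with quantile normalization. miR-337-5p was also the tested miRNA whose profile over the 6 libraries came closest to that of miR-127-3p. The root mean square distance between their log2(RPM + 1) values, each centred on its own mean, was 0.0414, and 0 of the 275 tested miRNAs outside the members lay nearer. The nearest of those were miR-24-3p (0.05096), miR-129-5p (0.0826) and miR-221-3p (0.0842), against a median distance of 0.253. The closeness did not extend to all members. The distances of the others ran from 0.129 for miR-370-5p, with 22 of the 275 nearer, to 0.442 for miR-665-3p, with 255 nearer. miR-127-5p, from the same hairpin, lay at 0.204, with 85 of the 275 nearer. The profiles share their libraries and differ in counting error, and the distance carries no test.

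**Figure D1:**
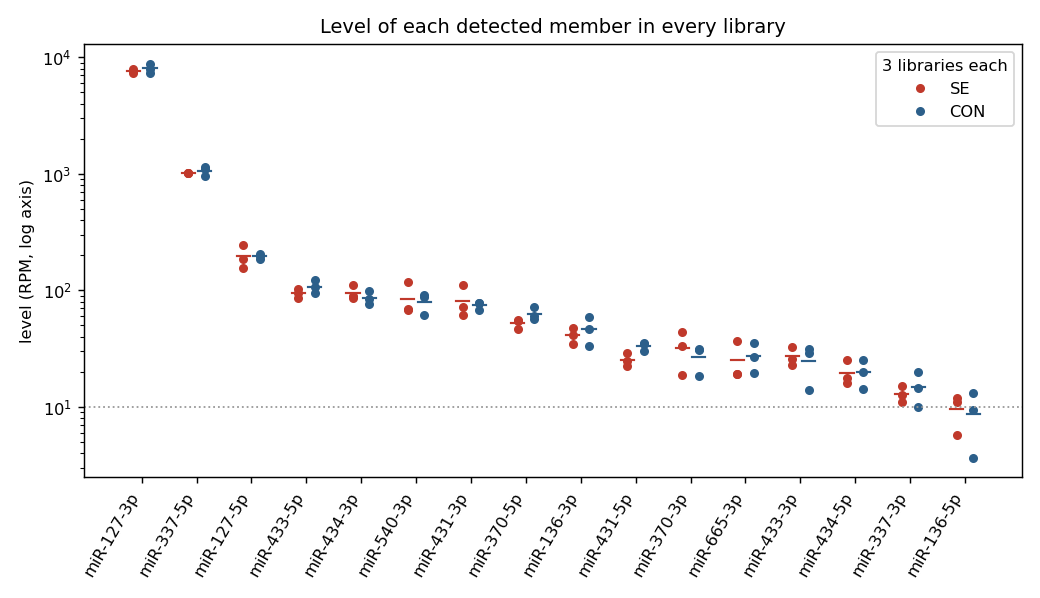
Level of each of the 16 members above 3 reads in every library, in RPM on a log axis, ordered by mean level. Red points are the 3 SE and blue points the 3 CON libraries, short lines are group means, and the dotted line marks 10 RPM. miR-127-3p lies between 7305 and 8811 RPM and miR-337-5p between 958 and 1150 RPM, above all other members, and miR-136-5p is the lowest shown at 3.65 to 13.1 RPM.

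Neighbouring hairpins of the cluster differed widely in RPM. With both arms added, miR-127 reached 8022 RPM over the 6 libraries and miR-665 26.1 RPM, a 308-fold range. miR-127 and miR-337 stood clear of all others, since the lowest miR-337 library (972 RPM) was above the highest of any hairpin further down. From miR-433 (109 to 153 RPM) through miR-434 (90.1 to 127.2 RPM), miR-431 (84.0 to 140 RPM), miR-370 (73.7 to 102.6 RPM), miR-540 (62.0 to 118 RPM) and miR-136 (36.7 to 71.6 RPM) to miR-665 (19.0 to 36.8 RPM), each hairpin overlapped the next in this order. miR-540 starts 0.291 kb and miR-665 0.525 kb from the start of miR-337. Their highest libraries, at 118 and 36.8 RPM, lay far below the lowest library of miR-337.

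**Figure D2:**
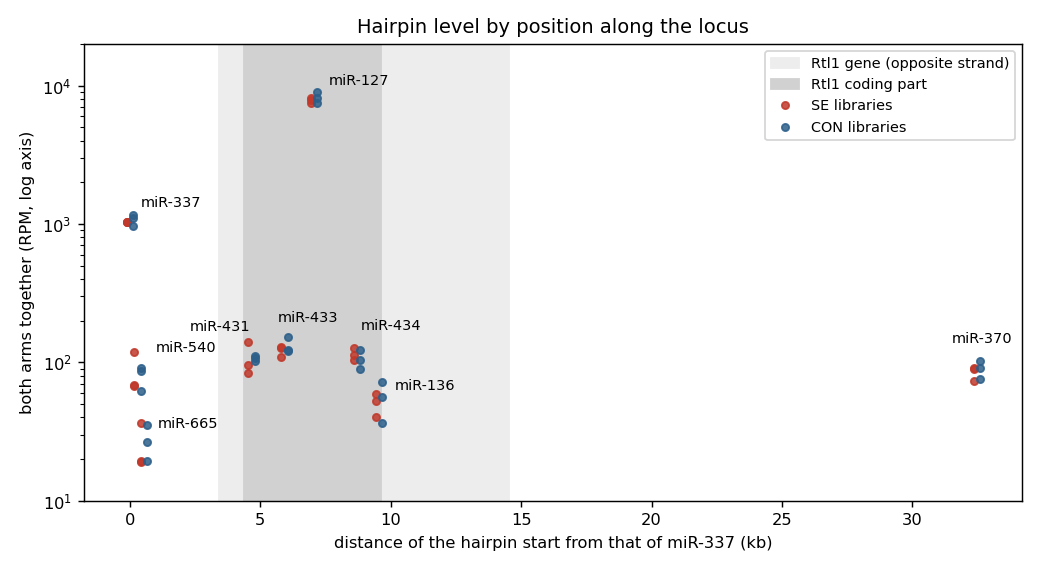
Level of each hairpin, both arms added, in RPM on a log axis, against the distance of its start from that of miR-337 in kb. Red points are SE and blue points CON libraries, set slightly apart sideways, and the shaded bands are the GENCODE Rtl1 gene and its coding part on the opposite strand. miR-127, in the coding part at 7.06 kb, lies at 7462 to 8997 RPM, while its neighbours miR-433 and miR-434 lie at 109 to 153 and 90.1 to 127.2 RPM.

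Each hairpin kept its leading arm in 6 of 6 libraries, and the leading arm differed between hairpins. The 3p arm led in miR-127, where the 5p arm held 2.06% to 3.08% of the hairpin's reads, and in miR-431, miR-434, miR-136, miR-540 and miR-665. The 5p arm led in miR-337, where it held 98.3% to 99.1%, in miR-433 (74.6% to 88.4%) and in miR-370 (51.5% to 75.7%). miR-665-5p had 0 reads in every library, where a count of 0 allows up to 0.277 to 0.547 RPM. miR-540-5p had 3 reads, all in CON replicate 1. Such limits cover counting error only, and a single read may have been dropped, since the lowest value listed in each library was read as 2 reads. The 70-base hairpin of miR-127, the source of most of the members' reads, is shown with the 5p and then the 3p arm in capitals.
miR-127 hairpin: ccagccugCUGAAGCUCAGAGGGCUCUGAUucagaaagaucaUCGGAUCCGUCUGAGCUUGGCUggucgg

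**Figure D3:**
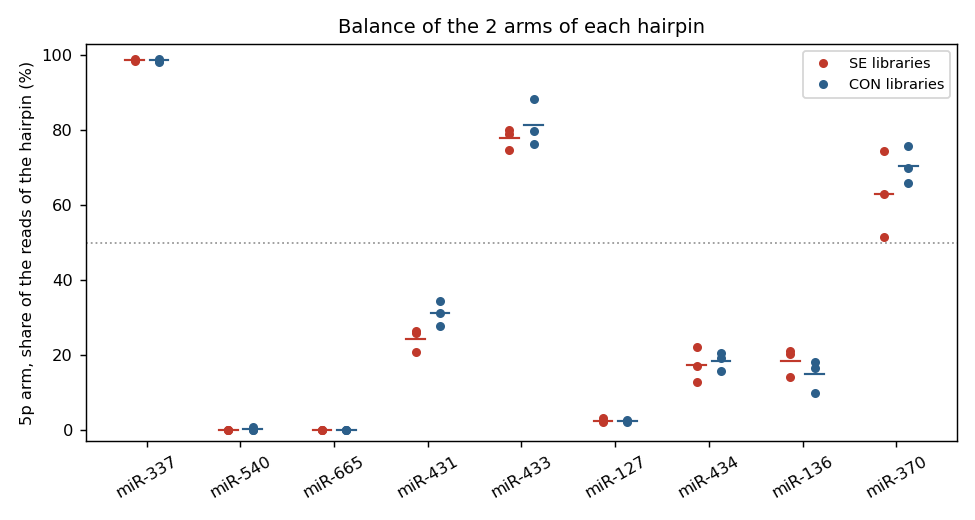
Share of each hairpin's reads that came from its 5p arm, in percent, with hairpins in chromosome order. Red points are the 3 SE and blue points the 3 CON libraries, short lines are group means, and the dotted line marks 50%. miR-337, miR-433 and miR-370 lie above the line in every library and the other 6 hairpins below it, and the miR-431 points of SE libraries (20.7% to 26.5%) lie below those of CON libraries (27.9% to 34.3%).

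The comparison of SE with CON asks whether the vesicle content of these miRNAs differed after status epilepticus. It was made with limma-trend over the 290 miRNAs whose mean level reached 10 RPM. The scale is log2(RPM + 1), on which a change of a low miRNA appears smaller than it is. 15 members passed this filter, which uses the mean of all 6 libraries. 0 of the 15 were called at a Benjamini-Hochberg adjusted p under 0.05, against 1.03% of all tested miRNAs, and 0 had an unadjusted p under 0.05, against 9.31%. limma-voom on the reads also called 0, with 0 at an unadjusted p under 0.05. The log2 fold changes ran from -0.39 to 0.20, with a median of -0.06 beside -0.07 over all tested miRNAs. With median-of-ratios scaling these medians were 0.05 and 0.03. The limma adjusted p-values of the members lay between 0.641 and 0.997. The 95% intervals of single members reached from -0.87 to 0.84, and differences inside the interval of a member remain possible for it.

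The SE and CON values failed to overlap for 2 members, both with lower SE values, beside 13.4% of all tested miRNAs with that pattern 1.38% with all SE values higher and 14.8% in either direction. The members' share is thus near the background. miR-431-5p, an arm of a miRNA studied in axon regrowth and muscle repair, stood at 28.95, 24.8 and 22.3 RPM in SE and 35.4, 34.8 and 29.98 RPM in CON replicates 1, 2 and 3, from 149 to 314 reads. The highest SE library lay about 1 RPM below the lowest CON library. Its log2 fold change was -0.39, with a 95% interval of -0.87 to 0.09 and a limma adjusted p of 0.641. miR-370-5p stood at 46.7, 56.0 and 54.9 RPM in SE and 71.7, 59.8 and 57.0 RPM in CON replicates 1, 2 and 3. Here too the nearest libraries of the groups were about 1 RPM apart. Its log2 fold change was -0.25, with a 95% interval of -0.70 to 0.20 and a limma adjusted p of 0.826.

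The partner arms of these miRNAs had values of the other sign. miR-431-3p stood at 111, 71.1 and 61.7 RPM in SE and 67.8, 77.0 and 77.6 RPM in CON replicates 1, 2 and 3, a log2 fold change of 0.09 with a limma adjusted p of 0.935. SE replicate 1 was far above the other 2 SE libraries, and without it the value was -0.16. miR-370-3p, reported to act on Cpt1a, an enzyme of fatty acid uptake into mitochondria, stood at 43.9, 32.9 and 18.8 RPM in SE and 30.9, 31.01 and 18.3 RPM in CON replicates 1, 2 and 3. The groups overlapped, and its log2 fold change was 0.20, with a 95% interval of -0.43 to 0.84 and a limma adjusted p of 0.881. Without SE replicate 1 it was -0.059, and without CON replicate 3 it was -0.038.

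The balance of the arms was tested directly, since a ratio within a library does not depend on its scaling. Over the 49 hairpins whose arms both had a mean of at least 10 RPM, limma on the log2 ratio of 5p to 3p called 2.04%, and 0 of the 6 members among them were called, with 0 at an unadjusted p under 0.05 beside 10.2%. In miR-431 the 5p arm held 20.7%, 25.8% and 26.5% of the hairpin's reads in SE and 34.3%, 31.2% and 27.9% in CON replicates 1, 2 and 3. The groups did not overlap, as for 8.16% of the tested hairpins. The log2 ratio of 5p to 3p differed by -0.48, SE minus CON, with a 95% interval of -1.19 to 0.23 and a limma adjusted p of 0.648. In miR-370 the difference was -0.46, with an interval of -1.20 to 0.28 and a limma adjusted p of 0.725. This rested on single libraries, since leaving out SE replicate 1 gave -0.11, CON replicate 3 -0.28 and SE replicate 3 -0.82. In miR-433 the difference was -0.36 with a limma adjusted p of 0.901. Leaving out CON replicate 3 gave -0.014, SE replicate 1 -0.23 and CON replicate 2 -0.61. In miR-434 it was -0.15 with a limma adjusted p of 0.982, and the range without each library crossed 0. miR-127 and miR-337 differed by 0.05 and 0.09, with intervals of -0.46 to 0.56 and -0.56 to 0.75.

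Of the other Rtl1-antisense members, miR-127-5p stood at 243, 187 and 156 RPM in SE and 185, 204.1 and 198 RPM in CON replicates 1, 2 and 3. The CON libraries lay inside the range of the SE libraries, and the log2 fold change was -0.03, with a limma adjusted p of 0.966. miR-433-5p stood at 95.1, 86.3 and 102.99 RPM in SE and 121.7, 94.1 and 106 RPM in CON replicates 1, 2 and 3, a log2 fold change of -0.17 with a limma adjusted p of 0.871. CON replicate 1 was its highest library. miR-433-3p stood at 32.4, 22.9 and 25.9 RPM in SE and 31.1, 29.2 and 14.0 RPM in CON replicates 1, 2 and 3. Its log2 fold change was 0.19, and -0.16 without CON replicate 3, its lowest library.

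miR-434-3p stood at 111, 88.8 and 86.4 RPM in SE and 98.0, 75.9 and 84.1 RPM in CON replicates 1, 2 and 3. The groups overlapped, and the log2 fold change was 0.15, with a 95% interval of -0.30 to 0.59 and a limma adjusted p of 0.881. miR-434-5p stood at 16.1, 25.1 and 17.6 RPM in SE and 25.2, 14.2 and 19.98 RPM in CON replicates 1, 2 and 3, with a log2 fold change of -0.002. Its values spread as widely within each group as between them. miR-136-3p stood at 47.1, 41.4 and 34.8 RPM in SE and 46.8, 33.0 and 58.6 RPM in CON replicates 1, 2 and 3, a log2 fold change of -0.14. CON replicates 2 and 3 were its lowest and its highest library. miR-136-5p lay under the filter, at 5.68 to 11.9 RPM in SE and 3.65 to 13.1 RPM in CON libraries.

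Among the members outside the coding part of Rtl1, miR-540-3p stood at 118, 67.1 and 68.8 RPM in SE and 61.5, 91.0 and 87.3 RPM in CON replicates 1, 2 and 3. SE replicate 1 was its highest library, and the log2 fold change of 0.05 was -0.21 without it. miR-665-3p stood at 36.8, 19.3 and 19.0 RPM in SE and 19.3, 26.6 and 35.5 RPM in CON replicates 1, 2 and 3, with a log2 fold change of -0.14 that was -0.44 without SE replicate 1. miR-337-3p, at 11.1 to 14.9 RPM in SE and 10.03 to 19.8 RPM in CON libraries, had a log2 fold change of -0.15. SE replicate 1, the deepest library, was the highest of the 6 for 7 of the 15 tested members, beside 31.03% of all tested miRNAs. CON replicate 1 was the highest for another 7, beside 82 of all 290 tested miRNAs. With median-of-ratios scaling SE replicate 1 was again the highest for 7 members, beside 21.7% of all tested miRNAs. The part of depth in this was not tested.

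**Figure D4:**
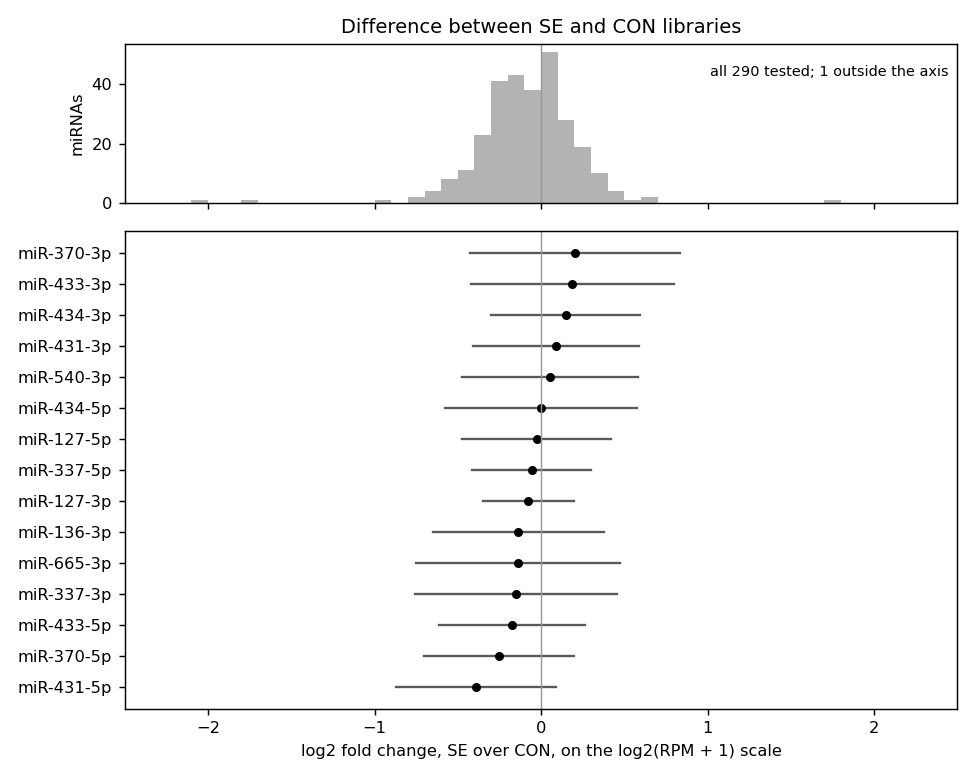
Top, the log2 fold changes (SE over CON) of all 290 tested miRNAs, as a histogram with 1 value outside the axis. Bottom, the 15 tested members, each with its estimate (point) and 95% interval (line) on the log2(RPM + 1) scale. All 15 intervals include 0, and the estimates run from -0.39 for miR-431-5p to 0.20 for miR-370-3p.

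In the authors' deposited table, 17 members were listed, and 0 had an adjusted p under 0.05 against 1.04% of its miRNAs. The table does not name its direction. miR-540-5p, whose reads are all from CON, has a positive value of 2.72 in the authors' deposited table, so a positive value there stands for a higher CON level. The authors' deposited table gives miR-127-3p a log2 fold change of -0.03 (standard error 0.11) and miR-337-5p -0.05 (standard error 0.13), both on the side of higher SE levels, where limma on RPM gave small values of the other direction. With median-of-ratios scaling the limma values were 0.028 and 0.047 as SE over CON, on the same side as that table. The smallest p-value of a member in the authors' deposited table was 0.0476 for miR-434-3p, with a log2 fold change of -0.25 (standard error 0.13) and an adjusted p of 0.965, and 5.05% of the miRNAs in that table had a p-value under 0.05. For miR-431-5p the authors' deposited table gives 0.30 (standard error 0.18) with a p of 0.103. These are not independent of the values above, because base means of that table gave the CON rows their names.

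The rest of the locus was counted for comparison from a list of 94 further miRNAs, of which 79 were detected and 39 tested. 0 of the 39 were called by limma, and 3 had an unadjusted p under 0.05, beside 9.31% of all tested miRNAs. That last count moved with single libraries. It was 6 when CON replicate 2 was left out and was 0 when SE replicate 2 was. It was 3 without SE replicate 1, and 1 when any single one of the other libraries was left out. Over all tested miRNAs the count was 27, and it ranged from 15 (SE replicate 2 left out) to 46 (CON replicate 2 left out). limma-voom also called 0, with 3 at an unadjusted p under 0.05. Their median log2 fold change was -0.18, and -0.08 with median-of-ratios scaling. The smallest p-values belonged to miR-376b-3p, with a log2 fold change of -0.58, miR-323-3p at -0.42, miR-323-5p at 0.58 and miR-381-3p at -0.42, and the lowest limma adjusted p was 0.233. SE values lay wholly below CON values for 3 of the 39, beside 13.4% of all tested miRNAs, and wholly above for 0, beside 1.38%. The difference between this list and the members was not tested.

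Sequence features that played no part in choosing the members were compared as descriptions. The 17 detected members were 20 to 23 bases long with a median of 22, and their median GC content was 54.5%, beside 50% over the 646 detected miRNAs with a RefSeq sequence, of 775 detected. The motif GGAG, described as a signal for loading miRNAs into exosomes, was searched in the mature strand. It occurred in 2 of the 17, or 11.8%, beside 12.4% of the 646. Those were miR-337-5p and miR-665-3p, the second most abundant member and one of the low ones, and miR-127-3p did not hold it. A match is a description of letters and not a shown signal. U was the first base of 29.4% of the detected members and of 41.6% of all detected miRNAs.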

How the data were processed

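Vesicle RNA was extracted with a column kit with DNase treatment and made into libraries with the QIAseq miRNA kit, per the labels' protocols. The submitters' processing notes name the build mm9 and the tool DESeq2. The aligner, counter and miRNA annotation are not given in the sources used here. The authors' deposited RPM values are reads scaled to one fixed total per library over the 1926 listed miRNAs. The authors' deposited second table gives, per the file headers, a base mean (a signal of normalized counts), log2 fold changes with standard errors, a test score (Wald), and raw and adjusted p-values. Nothing in it was refitted.

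If the lowest value of each column is taken as 2 reads, all RPM values lie within 0.0029 reads of whole reads, which gives the depths. CON totals per miRNA were obtained by subtracting normalized SE reads from the summed base mean. All 687 totals above 0 met a CON row to a relative 1e-08, and 665 names changed. 597 had a single candidate row, and the others had rows of identical reads.

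limma 3.58.1 (R 4.3.3) was fitted to log2(RPM + 1) of the 290 miRNAs whose mean reached 10 RPM, with group as the factor, and to the log2 arm ratio of 49 hairpins with the level of the lower arm as trend covariate. Calls are two-sided at a Benjamini-Hochberg adjusted p under 0.05 over all features fitted. The fits were also run on simulated counts with changes larger than those of the members. That run does not measure detection at the members' size, and no result here rests on it. Other settings tried were a pseudocount of 0.5 or 5 RPM, a filter of 50 RPM or none, median-of-ratios and quantile scaling, limma without trend, robust limma, limma-voom, a replicate block, an adjusted p under 0.1, names as deposited, and each library left out. Members, lists and tests were chosen with earlier results of these data known. The text names every member, and of the other locus miRNAs the 4 with the smallest p. Python 3.11.15, numpy 2.4.6, pandas 2.3.3 and matplotlib 3.10.9 were used.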

Additional observations from a re-analysis of the deposited data

How the results depend on the processing

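The count of called members was 0 by limma under each of the 18 alternatives, as was the count for the other locus miRNAs, and the count for arm balance was 0 under each of its 14. The lowest limma adjusted p of a member was 0.483 (without CON replicate 2), of another locus miRNA 0.107 (without CON replicate 2) and of an arm ratio 0.381 (without SE replicate 3). Quantile normalization gave 1 of the 15 tested members an unadjusted limma p under 0.05, beside 22 of all 290 tested miRNAs. That member was miR-431-5p, with a limma p of 0.0336 and an adjusted p of 0.522. With the replicate number as a block the member count was again 0. Deviations of same-numbered SE and CON libraries correlated at -0.415, -0.249 and 0.0447. With 3 libraries per group, each centred on its group mean, these correlations cannot decide whether the numbers pair the samples. The block left 3 of the 290 tested miRNAs called, as without it. That count over all tested miRNAs was 6 when CON replicate 2 and 5 when CON replicate 3 was left out. edgeR was not run, because the reads rest on a reading of the lowest value.

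Signs of the small values changed with scaling. With median-of-ratios scaling the log2 fold change was 0.047 for miR-337-5p, 0.028 for miR-127-3p, 0.076 for miR-127-5p and 0.10 for miR-434-5p. With quantile normalization it was 0.21 for miR-337-5p, 0.16 for miR-127-3p, 0.074 for miR-127-5p and 0.031 for miR-136-3p. With CON rows under the names as deposited it was 0.025 for miR-337-3p, -0.065 for miR-540-3p, -0.090 for miR-431-3p, 0.11 for miR-433-5p, -0.12 for miR-433-3p, 0.019 for miR-434-5p, -0.18 for miR-370-3p, 0.12 for miR-323-3p and -0.14 for miR-323-5p, and the arm balance was -0.10 for miR-337, 0.028 for miR-431, 0.23 for miR-433 and 0.016 for miR-370. The change of scaling alone moved each of the 15 tested members up by 0.097 to 0.104 with median of ratios, and under the deposited names the CON values belong to other miRNAs. The median over all tested miRNAs moved from -0.07 to 0.03 with median-of-ratios scaling and to 0 with quantile normalization.

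Leaving out each library in turn gave ranges that crossed 0 for miR-337-3p (-0.39 to 0.071), miR-540-3p (-0.21 to 0.19), miR-665-3p (-0.44 to 0.068), miR-431-3p (-0.16 to 0.26), miR-433-3p (-0.16 to 0.39), miR-127-5p (-0.20 to 0.12), miR-434-5p (-0.21 to 0.18), miR-136-3p (-0.35 to 0.052) and miR-370-3p (-0.059 to 0.53). For arm balance they did for miR-337 (-0.072 to 0.35), miR-127 (-0.12 to 0.17) and miR-434 (-0.38 to 0.085). They kept one sign for miR-127-3p (-0.14 to -0.0078), miR-337-5p (-0.13 to -0.00075), miR-433-5p (-0.26 to -0.080), miR-431-5p (-0.49 to -0.30), miR-370-5p (-0.32 to -0.16) and miR-434-3p (0.034 to 0.24), and for the arm balance of miR-431 (-0.59 to -0.33), miR-433 (-0.61 to -0.014) and miR-370 (-0.82 to -0.11). Depth limits the low members most: miR-136-5p rested on 20 to 129 reads and miR-337-3p on 55 to 162.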
